A study of Arabidopsis thaliana with 11 samples.

Results

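Peak lists of ACD15-FLAG were set against those of MBD6-RFP in wild type plants, as positions on the Arabidopsis thaliana genome. The members were the 2 ACD15-FLAG lists and the 2 wild type MBD6-RFP lists, chosen by their labels, which together hold 21343 of the 25734 regions in the 6 lists read. The lists come from a chromatin immunoprecipitation (ChIP-seq) series of 11 libraries in 6 groups. ACD15-FLAG plants were Col0 wild type plants with the transgene ACD15.5-3XFLAG, in 2 libraries of batch 1. MBD6-RFP plants were Col0 wild type plants with the transgene MBD6-RFP, in 2 libraries of batch 2. Inflorescences of plants grown with 16 h of light were used in every library, and both groups still carry their own ACD15 and MBD6 genes. No source used here names the promoters that drive the transgenes or how many plant lines were used. Whether the replicates are separate plants is not stated, so the spread between them may be technical. The antibody label names FLAG for all libraries, although titles of batch 2 name RFP. Tag, batch and protein therefore cannot be told apart, and only positions are compared here.

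MBD6 belongs to a plant protein family with a methyl-CG-binding domain. Such proteins read cytosine methylation in CG dinucleotides, a mark that holds transposons and some promoters silent. ACD15 carries an alpha-crystallin domain, the fold of small heat shock proteins, and works with MBD5 and MBD6 together with ACD21 and the J-domain protein SLN. Methylated CG sites are dense in the gene-poor chromatin around the centromeres, where most transposons lie, and are also found at transposon remnants and repeats near genes on the chromosome arms.

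The lists differed in size, and the MBD6 replicates stood apart from each other. ACD15 had 5661 regions in replicate 1 and 10946 in replicate 2, while MBD6 had 3492 in replicate 1 and 1244 in replicate 2. ACD15 regions covered 2.17% and 5.35% of the 5 chromosomes, and MBD6 regions 2.21% and 0.455%. Of ACD15 replicate 1 regions, 97.2% overlapped replicate 2. Of MBD6 replicate 1 regions, only 4.78% overlapped replicate 2, and 13.7% of replicate 2 regions overlapped replicate 1. The MBD6 replicates also differed in sequence, with a median GC content at the summit (the base of highest signal) of 43% in replicate 1 and 54% in replicate 2. The same numbers parted the 2 lists of MBD6-RFP in acd15 acd21 plants, where the median was 48% in replicate 1 and 56.5% in replicate 2. The lowest -log10 q value in a list was 2.00 for ACD15 and 1.39 for MBD6. The running numbers in the peak names had gaps: the lists held 93.2% and 94.7% of the numbers up to the highest one in ACD15 and 53.0% and 96.5% in MBD6. Read depth is unknown from these lists. A region missing from one was either not called or called and later taken out, which cannot be told apart here.

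The highest-ranking sites are printed to show what the proteins shared and did not share, each as 200 bp around a summit of the RefSeq TAIR10.1 genome, read 5' to 3' with every CG in capitals. The first 3 are the sites found in all 4 libraries with the highest mean within-list percentile of the score.
Shared site near AT1G18720, chr1:6455468-6455667, + strand: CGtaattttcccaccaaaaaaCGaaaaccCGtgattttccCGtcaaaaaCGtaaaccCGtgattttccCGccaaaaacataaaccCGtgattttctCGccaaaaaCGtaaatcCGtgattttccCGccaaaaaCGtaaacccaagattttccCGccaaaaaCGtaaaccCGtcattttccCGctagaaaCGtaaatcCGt
Shared site upstream of COBL2, chr3:11726856-11727055, + strand: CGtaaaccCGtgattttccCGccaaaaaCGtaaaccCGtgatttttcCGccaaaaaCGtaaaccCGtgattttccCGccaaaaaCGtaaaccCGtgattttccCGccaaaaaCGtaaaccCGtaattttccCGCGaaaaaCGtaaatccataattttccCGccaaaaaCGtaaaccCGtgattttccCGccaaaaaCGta
Shared site upstream of AT2G40420, chr2:16876567-16876766, + strand: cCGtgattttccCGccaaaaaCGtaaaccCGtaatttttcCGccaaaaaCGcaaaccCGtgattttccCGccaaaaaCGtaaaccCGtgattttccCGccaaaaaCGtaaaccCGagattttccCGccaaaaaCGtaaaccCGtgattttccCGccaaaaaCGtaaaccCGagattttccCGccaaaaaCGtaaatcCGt
These 3 windows hold 19, 22 and 22 CG dinucleotides, and each repeats 1 short unit. The site near AT1G18720 lies 2207 bp from that gene, the COBL2 site lies in the pseudogene AT3G29805, and the site upstream of AT2G40420 lies in its promoter, 477 bp from the gene. Next is the third-ranked site found in both ACD15 libraries and in no MBD6 library, chosen because it lies before a gene.
ACD15 site upstream of COL4, chr5:8588847-8589046, + strand: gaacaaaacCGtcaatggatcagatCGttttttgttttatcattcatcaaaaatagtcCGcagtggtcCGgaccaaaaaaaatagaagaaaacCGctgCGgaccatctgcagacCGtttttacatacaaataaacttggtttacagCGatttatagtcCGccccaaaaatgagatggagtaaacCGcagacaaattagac
It holds 10 CG dinucleotides and no copy of that unit. The first-ranked site, at ACT2, also holds 10, but lies in a UTR exon and is not printed. The site ranked between them lies 306 bp from AT1G76440, an HSP20-like gene, and holds 1 CG. It lies outside the deposited MBD5/MBD6 regions, and reads from the ACD15-FLAG transgene cannot be told apart there from binding, so it is not printed. The last 4 are the highest sites of each MBD6 library without an ACD15 region.
MBD6 replicate 1 site near AT3G30859, chr3:12638829-12639028, + strand: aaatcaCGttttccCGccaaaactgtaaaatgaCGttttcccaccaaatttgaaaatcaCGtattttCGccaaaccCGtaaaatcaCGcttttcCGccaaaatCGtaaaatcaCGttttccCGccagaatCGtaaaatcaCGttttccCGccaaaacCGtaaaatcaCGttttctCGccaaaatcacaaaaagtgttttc
MBD6 replicate 1 site near AT4G07055, chr4:11756898-11757097, + strand: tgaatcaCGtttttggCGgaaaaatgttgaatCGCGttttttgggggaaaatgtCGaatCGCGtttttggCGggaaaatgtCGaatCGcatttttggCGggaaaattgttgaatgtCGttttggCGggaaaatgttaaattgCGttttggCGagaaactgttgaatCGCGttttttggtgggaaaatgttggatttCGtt
MBD6 replicate 2 site in AT5G35860, chr5:14018638-14018837, + strand: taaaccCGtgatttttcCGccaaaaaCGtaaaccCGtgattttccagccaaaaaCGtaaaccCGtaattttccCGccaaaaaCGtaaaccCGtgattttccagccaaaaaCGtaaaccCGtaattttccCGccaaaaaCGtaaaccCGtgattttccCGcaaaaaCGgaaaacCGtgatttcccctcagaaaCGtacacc
MBD6 replicate 2 site in AT2G01037, chr2:60405-60604, + strand: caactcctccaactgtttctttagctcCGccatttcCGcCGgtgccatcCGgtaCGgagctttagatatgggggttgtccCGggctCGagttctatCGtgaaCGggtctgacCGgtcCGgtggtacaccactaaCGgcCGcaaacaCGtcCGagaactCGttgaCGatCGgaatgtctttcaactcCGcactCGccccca
They hold 17, 18, 18 and 20 CG dinucleotides. The site in the pseudogene AT5G35860 again repeats the unit seen in the shared sites, and it lies outside the deposited MBD5/MBD6 regions.

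The repeat was counted through its 10-letter string CGCCAAAAAC, searched on both strands. This was the 10-letter string with the most copies in the 3 shared windows (4, 6 and 7), so it was chosen from these data and is a description only. The printed MBD6 sites near AT4G07055 and in AT5G35860 hold 2 and 3 copies, and the other two hold none. The 5 chromosomes hold 1068 copies. ACD15 regions contained 69.8% of the copies in replicate 1 and 73.0% in replicate 2, and MBD6 regions 71.2% in replicate 1 and 58.1% in replicate 2. The string stood in 64 of the 136 sites found in all 4 libraries (47.1%), including the windows it was taken from. Of the sites with both ACD15 libraries and 1 MBD6 library, it stood in 47 of 1483 with replicate 1 (3.17%) and 5 of 331 with replicate 2 (1.51%). It stood in 30 of the 3163 sites found in both ACD15 libraries only (0.948%), and in 5 of 1165 sites of MBD6 replicate 1 only (0.429%). Of the 185 sites of MBD6 replicate 2 only it stood in 1 (0.541%), the printed site in AT5G35860. Whole sites were searched, and their median width was 1460.5 bp in all 4 libraries, 872 and 1059 bp with 1 MBD6 library and 559 bp for ACD15 only. It was 550 bp for MBD6 replicate 1 only and 304 bp for MBD6 replicate 2 only. Within 200 bp windows at summits the string occurred in 1.91% and 1.08% of ACD15 regions and in 2.84% and 5.71% of MBD6 regions, against 0.0915% of all 200 bp tiles of the chromosomes. Windows of ACD15 regions with an MBD6 region held it in 4.28% and 2.82%, and those without in 0.579% and 0.372%. Among MBD6 windows the shares were 3.94% and 6.05% with an ACD15 region, and 0.677% and 3.96% without. No test was made on these shares.

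MBD6 sites were mostly also ACD15 sites, while most ACD15 sites had no MBD6 region. An ACD15 region overlapped an MBD6 region of either replicate by at least 1 bp in 35.9% of replicate 1 (95% exact binomial interval over regions 34.6 to 37.1) and 28.8% of replicate 2 (28.0 to 29.7). An MBD6 region overlapped an ACD15 region in 66.2% of replicate 1 (64.6 to 67.7) and 83.8% of replicate 2 (81.6 to 85.8). The means were 32.4% ± 4.99 for ACD15 and 75% ± 12.4 for MBD6 (SD, n = 2 each). Both shares depend on list length, so they were not tested against each other. When each list was cut to its 1244 highest-scoring regions, the ACD15 mean was 55.2% and the MBD6 mean 35.4%, so the order turned round. MBD6 replicate 2 alone overlapped 8.34% and 8.65% of ACD15 regions, against 29.8% and 21.6% for MBD6 replicate 1. Without MBD6 replicate 1 the ACD15 mean was therefore 8.49%, and without ACD15 replicate 2 the MBD6 mean was 42.9%.

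**Figure D1:**
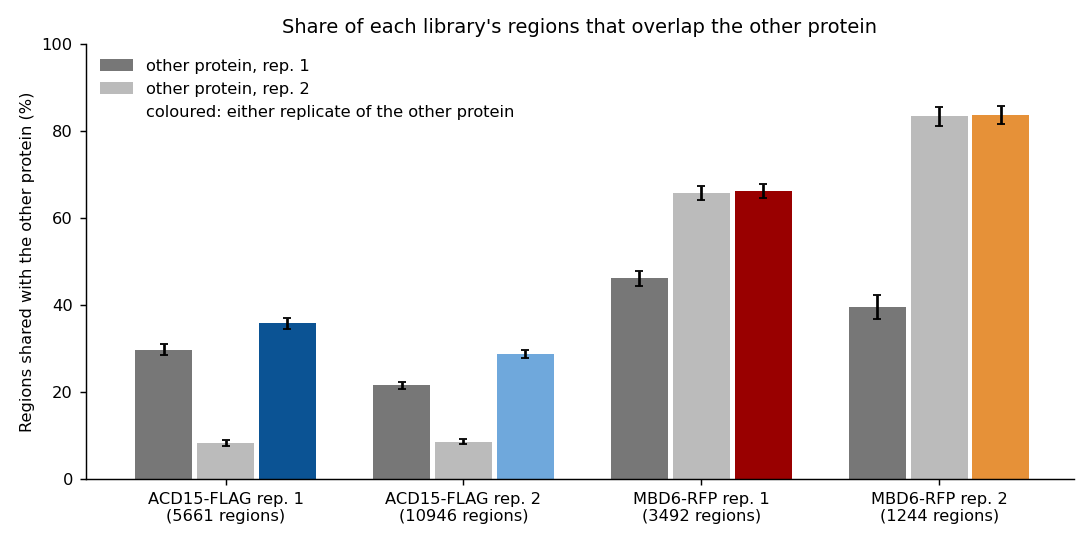
Bars give the share of regions (%) in each ACD15-FLAG library, left, and each MBD6-RFP library, right, that overlap a region of the other protein by at least 1 bp, in its replicate 1 (dark grey), replicate 2 (light grey) or either (coloured); whiskers are 95% exact binomial intervals over regions. The coloured bars stand at 35.9% and 28.8% for ACD15-FLAG and at 66.2% and 83.8% for MBD6-RFP.

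Joined over the 4 lists, the regions formed 12368 sites, of which 3073 (24.8%) held both proteins, 7929 (64.1%) ACD15 only and 1366 (11.0%) MBD6 only. Of the sites with ACD15 only, 4623 came from ACD15 replicate 2 alone, 143 from replicate 1 alone and 3163 from both. Shared sites were split between the MBD6 replicates. Both ACD15 libraries and MBD6 replicate 1 met at 1483 sites, both ACD15 libraries and MBD6 replicate 2 at 331 sites, and all 4 libraries at 136. A further 450 sites joined ACD15 replicate 2 with MBD6 replicate 2, and 80.9% of them lay in gene-poor parts of the chromosomes, against 21.5% of the 331 sites. Only 16 sites held both MBD6 replicates and no ACD15. The distance from unshared regions to the other protein differed between libraries. The nearest MBD6 summit lay at a median of 8.72 and 7.43 kb from ACD15 regions without MBD6. For MBD6 regions without ACD15, the nearest ACD15 summit lay at a median of 4.03 kb in replicate 1 and 1.61 kb in replicate 2, where 27.7% had one within 1 kb. These distances depend on how many summits the other protein has, and the ACD15 lists are longer. The part of list length in them was not tested.

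Regions with higher scores in their own list were more often shared. From the lowest to the highest of 4 score classes of about equal size, the share of ACD15 replicate 1 regions with MBD6 was 20.3%, 25.2%, 35.2% and 62.7%. ACD15 replicate 2 gave 21.4%, 19.3%, 23.5% and 51.1%. MBD6 replicate 1 gave 32.4%, 56.1%, 80.3% and 95.7%, and MBD6 replicate 2 gave 72.4%, 81.3%, 86.8% and 94.5%. The highest class had the largest share in all 4 libraries. It also held the widest regions, with medians of 553 and 726 bp for ACD15 and 890 and 496 bp for MBD6, and a wider region overlaps more easily. The part of width in these shares was not tested.

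Where the proteins met, their summits lay close, but farther apart than summits of ACD15 replicates. For each MBD6 summit, the distance was taken to the nearest ACD15 summit of an overlapping region. The medians were 43 bp from ACD15 replicate 1 to MBD6 replicate 1 (n = 1613), 42 bp to MBD6 replicate 2 (n = 493), and 49 and 52.5 bp from ACD15 replicate 2 to the same lists (n = 2300 and 1038). Their mean was 46.6 ± 4.99 bp (SD over 4 library pairs, which share libraries). The ACD15 replicates lay at a median of 18 bp from each other (n = 5501), and the MBD6 replicates at 31 bp over the 171 regions they shared. Summits within 50 bp made up 49.1% to 55.0% of the pairs between proteins, 78.6% between ACD15 replicates and 70.8% between MBD6 replicates. With 4 pairs from 4 libraries the difference between these distances was not tested. Several summits were listed in 18.2% and 26.4% of ACD15 regions and in 0% of regions of both MBD6 lists. Only the highest-scoring summit of a region was used above. With the nearest of all summits the mean between proteins was 37.25 bp. The part of this difference in summit calling in the distances was not tested. MBD6 regions over 1000 bp wide had larger medians, 51 and 68.5 bp in replicate 1 and 83 and 80 bp in replicate 2, the last on 17 and 31 regions.

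**Figure D2:**
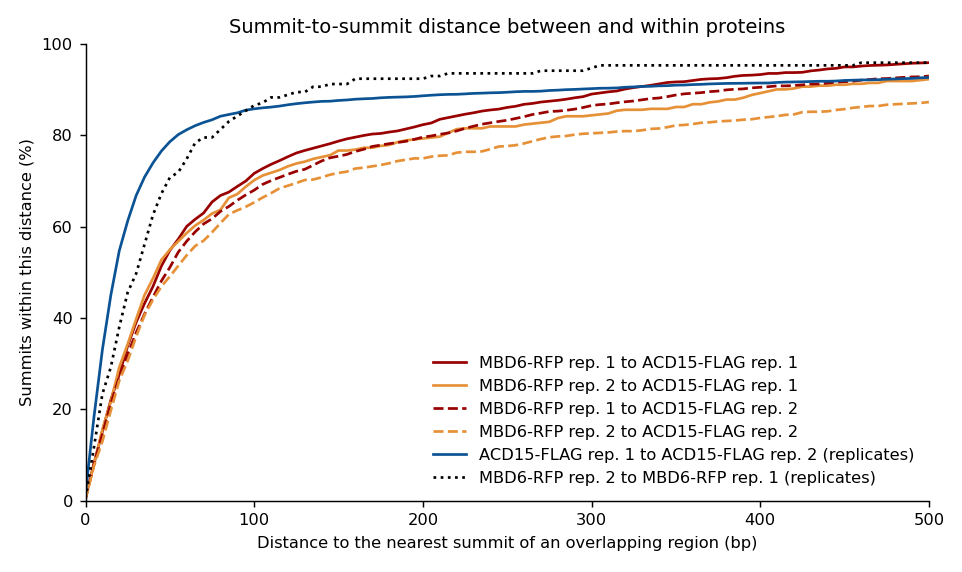
Lines give the cumulative share of summits (%) against the distance in bp to the nearest summit of an overlapping region, for the 4 pairs of an ACD15-FLAG and an MBD6-RFP library (red and orange) and for replicates of ACD15-FLAG (blue) and MBD6-RFP (black, dotted). At 50 bp the 4 lines between proteins stand at 49.1% to 55.0%, below 78.6% and 70.8% for the replicates.

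In promoters the MBD6 summit lay slightly more often on the upstream side. A promoter here is the 1 kb before the start of a protein-coding gene. Pairs were taken where the ACD15 summit lay in a promoter, with no such limit on the MBD6 summit. That choice can itself shift the offset, which was not tested. Direction is that of the protein-coding gene with the nearest start. Counted along the gene, with negative values upstream, the median offset of the MBD6 summit from the ACD15 summit was -15 and -8 bp for ACD15 replicate 1 against MBD6 replicates 1 and 2, over 481 and 114 pairs. For ACD15 replicate 2 it was -13 and -7 bp, over 559 and 130 pairs. MBD6 was upstream in 56.9% to 60.5% of pairs. The lower quartile of the offsets lay at -96 to -79.5 bp and the upper at 19.8 to 23 bp, so the shift was small beside the spread between sites.

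Summits of ACD15 were lower in GC content and in CG dinucleotides than summits of MBD6. The median GC content in 200 bp at the summit was 36% and 36.5% for ACD15, and 43% and 54% for MBD6, beside 36.0% over the 5 chromosomes. The ACD15 libraries thus lay below both MBD6 libraries, and the means differed by -12.25 percentage points (ACD15 minus MBD6; exact two-sided permutation p = 0.333, the smallest that 2 against 2 libraries can give). CG dinucleotides averaged 3.74 and 3.88 per 100 bp at ACD15 summits and 4.94 and 8.07 at MBD6 summits, against 2.34 over the chromosomes (difference -2.69, exact permutation p = 0.333). All 4 libraries were thus above the genome in CG, whereas the GC medians of ACD15 lay within 1 percentage point of it. Without MBD6 replicate 2 the differences were -6.75 points of GC and -1.13 CG per 100 bp, and without MBD6 replicate 1 they were -17.75 and -4.25. Summits without any CG in the window were 0.901% and 0.822% of ACD15 regions, and 0 of 3492 and 0 of 1244 MBD6 regions.

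The width of regions did not part the proteins. Medians were 371 and 451 bp for ACD15 and 635 and 363 bp for MBD6, so the groups overlapped (log2 difference -0.23, exact permutation p = 1). The sign of that difference turned without MBD6 replicate 1, to 0.17, and with lists of equal length, to 0.32.

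ACD15 regions with an MBD6 region were richer in GC and CG than those without. Median GC content was 39.5% with MBD6 and 33.5% without in ACD15 replicate 1, and 42% with and 34% without in replicate 2. CG dinucleotides numbered 4.84 per 100 bp with MBD6 and 3.13 without in replicate 1, and 5.38 with and 3.28 without in replicate 2. Regions of MBD6 with ACD15 were not richer in GC. Their median GC content was 41.5% with ACD15 and 46.5% without in replicate 1, and 54% with and 54.75% without in replicate 2. The CG values of MBD6 regions were 4.87 with ACD15 and 5.08 without in replicate 1, and 8.08 with and 7.99 without in replicate 2. The difference with minus without averaged 7 ± 1.41 points of GC for ACD15 and -2.88 ± 3.01 for MBD6 (SD, n = 2 each). The MBD6 value was smaller than its spread, but was -6.25 without ACD15 replicate 2. The ACD15 value was 13.75 without MBD6 replicate 1 and 4.75 without MBD6 replicate 2, and its CG value of 1.91 was 3.76 and 0.98 on the same lists. The MBD6 CG value of -0.06 turned to 0.10 without MBD6 replicate 1 and was -0.67 without ACD15 replicate 2. Regions with the other protein were also wider in all 4 libraries, 458 and 640 bp against 333 and 401 bp without for ACD15, and 679 and 379 bp against 554 and 305 bp without for MBD6.

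**Figure D3:**
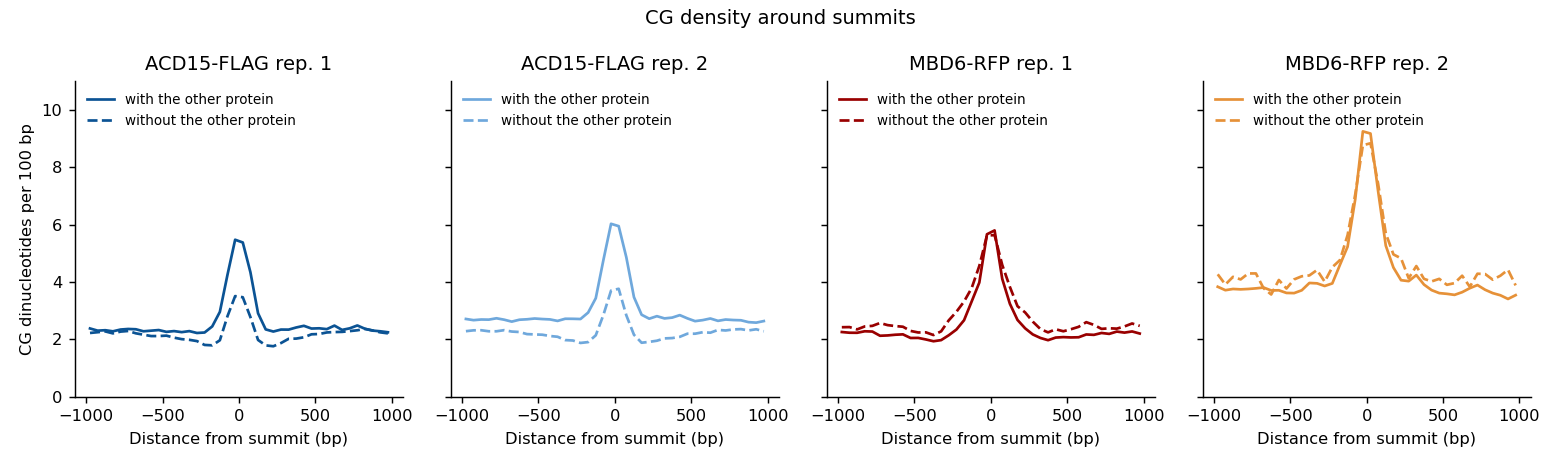
Lines give the mean number of CG dinucleotides per 100 bp, in steps of 50 bp, against the distance from the summit in bp, for regions with (solid) and without (dashed) the other protein; the ACD15-FLAG libraries are the 2 left panels and the MBD6-RFP libraries the 2 right ones. In the step before the summit ACD15-FLAG stands at 5.47 and 6.03 with MBD6 and at 3.51 and 3.70 without, and MBD6-RFP at 5.66 and 9.25 with ACD15 and at 5.62 and 8.76 without.

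The peak in CG density at the summit was narrow. At ACD15 summits without MBD6 the density in the step before the summit was 3.51 and 3.70 per 100 bp, against 2.22 and 2.29 in the step farthest upstream, about 1 kb away. With MBD6 it was 5.47 and 6.03, against 2.38 and 2.71 in that step. MBD6 replicate 2 lay in sequence that was richer in CG throughout, at 3.83 with and 4.27 without ACD15 in the same distant step.

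The MBD6 replicates met ACD15 in different classes of GC content. Among ACD15 replicate 1 regions, the share with MBD6 replicate 1 was 14.5% under 30% GC, 28.9% from 30 to under 40%, 47.7% from 40 to under 50% and 10.0% at 50% or more. The share with MBD6 replicate 2 over the same classes was 0.362%, 2.49%, 17.1% and 53.4%. In ACD15 replicate 2 the shares were 7.95%, 21.2%, 38.7% and 8.41% with MBD6 replicate 1, and 0.210%, 1.66%, 10.1% and 49.0% with MBD6 replicate 2. Thus MBD6 replicate 1 met ACD15 most often between 40 and 50% GC and replicate 2 above that, in both ACD15 libraries. The same order held in gene-rich and in gene-poor bins: at 50% GC or more, MBD6 replicate 2 met 54.5% of gene-rich and 50% of gene-poor regions of ACD15 replicate 1, and 36.8% and 59.3% of those of replicate 2. Of the MBD6 regions themselves, 11.6% in replicate 1 and 74.4% in replicate 2 had 50% GC or more, against 5.12% and 10.8% of ACD15 regions. The part of list length and GC content in the split of the MBD6 replicates was not tested.

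**Figure D4:**
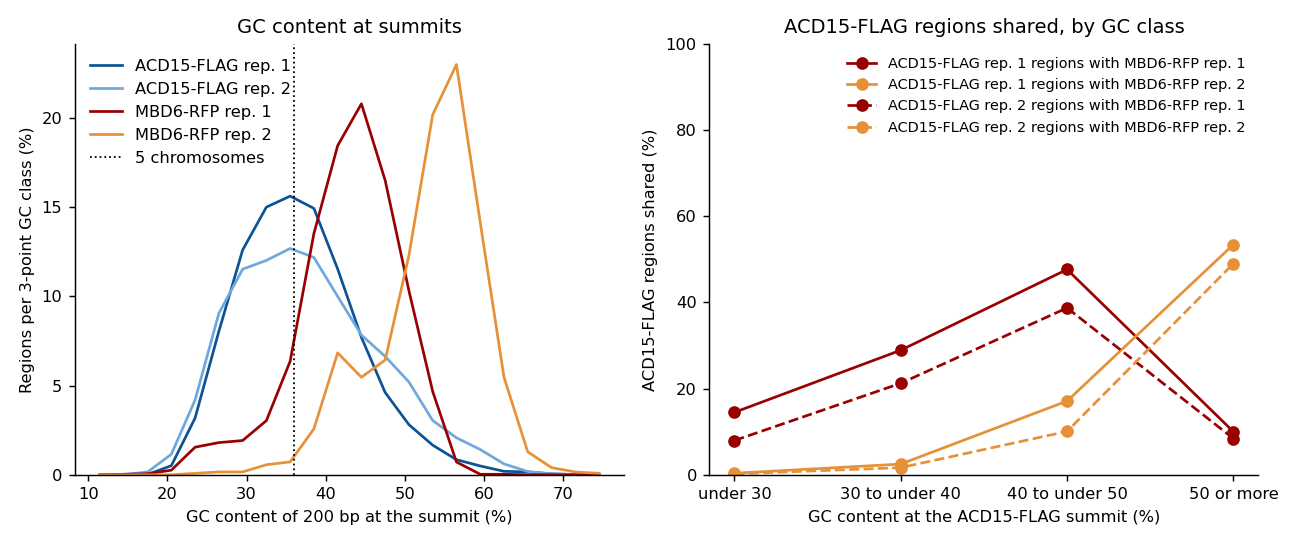
Left: share of regions (%) against GC content (%) of 200 bp at the summit for the 2 ACD15-FLAG libraries (blue) and the 2 MBD6-RFP libraries (red, orange), with the 36.0% of the 5 chromosomes dotted. Right: share of ACD15-FLAG regions (%) that overlap MBD6-RFP replicate 1 (red) or 2 (orange) in 4 classes of GC content at the ACD15-FLAG summit, solid for ACD15-FLAG replicate 1 and dashed for replicate 2. Above 50% the red lines stand at 10.0% and 8.41% and the orange ones at 53.4% and 49.0%.

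ACD15 lay less often than MBD6 in gene-poor parts of the chromosomes, which were taken as 100 kb bins with under 20% of bases in protein-coding exons and make up 16.8% of the bases. Such bins held 20.3% (19.3 to 21.4, exact binomial over regions) and 28.8% (27.9 to 29.6) of ACD15 regions, and 43.6% (42.0 to 45.3) and 54.7% (51.8 to 57.5) of MBD6 regions. The groups did not overlap (difference -24.6 percentage points, exact permutation p = 0.333). MBD6 regions without ACD15 were the most gene-poor class, with 76.0% and 80.7% in such bins, against 27.1% and 49.6% of MBD6 regions with ACD15. For ACD15 the shares were 20.7% and 34.7% with MBD6 and 20.1% and 26.4% without. That mean difference of 4.50 points was 12.5 without MBD6 replicate 1 and -0.33 without MBD6 replicate 2. In the least genic bins, with under 10% of bases in exons, 30.6% of MBD6 replicate 1 regions met ACD15, against 87.0% in bins with 30 to 40%. MBD6 replicate 2 met ACD15 in 73.4% and 96.4% of its regions in the same bins.

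**Figure D5:**
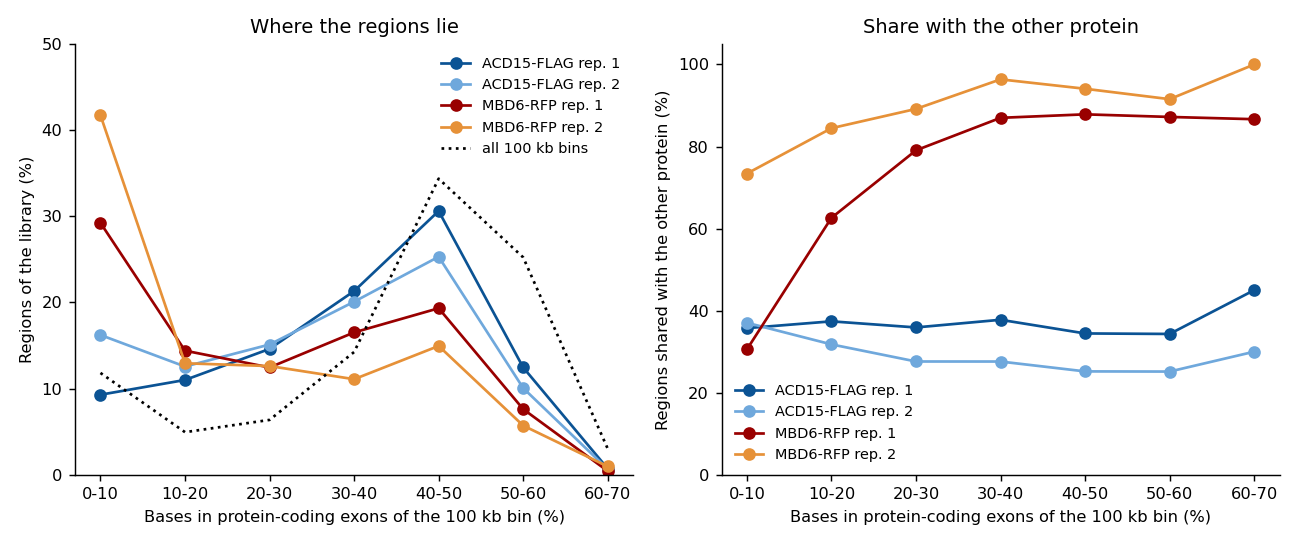
Left: share of each library's regions (%) by the share of bases in protein-coding exons (%) of the 100 kb bin they lie in, with all bins dotted. Right: share of those regions (%) that overlap the other protein. ACD15-FLAG libraries are blue and MBD6-RFP libraries red and orange; in the lowest class the left panel shows 9.29% and 16.2% of ACD15-FLAG and 29.2% and 41.7% of MBD6-RFP regions, and the right panel 30.6% of MBD6-RFP replicate 1.

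Both proteins lay in protein-coding gene bodies to a similar extent, below the gene bodies' share of the bases, and their shares in promoters and pseudogenes did not overlap. Gene bodies held 14.3% and 15.8% of ACD15 summits and 14.6% and 12.9% of MBD6 summits, against 54.1% of the bases (difference 1.34 points, exact permutation p = 0.667; with lists of equal length it turned to -1.81). Promoters held 29.0% and 23.1% of ACD15 summits and 14.6% and 9.65% of MBD6 summits, against 13.3% of the bases. Pseudogenes, without those annotated as transcribed, held 265 and 1272 ACD15 summits (4.68% and 11.6%) and 841 and 509 MBD6 summits (24.1% and 40.9%). All pseudogenes and genes that do not code for protein make up 9.99% of the bases. Together they held 8.64% and 15.0% of ACD15 summits and 27.8% and 44.7% of MBD6 summits. Of MBD6 summits without ACD15, 51.1% and 61.4% lay in this class, and only 1.69% and 1.49% in promoters. The median distance to the nearest start of a protein-coding gene was 1344 and 1697 bp for ACD15 and 2495 and 4133 bp for MBD6. It was 7836 and 9584 bp for MBD6 regions without ACD15.

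The separate deposited list of MBD5/MBD6 regions, whose parent lists belong to no library of the series, gave a measure that the overlap did not use. Of ACD15 regions, 99% and 97.8% of those with MBD6-RFP and 95.5% and 93.7% of those without overlapped an MBD5/MBD6 region. Most ACD15 regions without an MBD6-RFP region thus overlapped that other list. The share of the chromosomes that it covers is not given here, so no background share stands beside these values. For MBD6-RFP regions the shares were 98.3% and 96.7% with ACD15, and 51.1% and 83.2% without. MBD6 replicate 1 regions without ACD15 were also called in acd15 acd21 plants in 59.9% of cases, against 49.8% of those with ACD15. These came from replicate 1 of the acd15 acd21 lists, as its replicate 2 gave only 0.762% and 0.260%. In MBD6 replicate 2 the shares without and with ACD15 were 38.6% and 38.5%. There the 2 acd15 acd21 lists went opposite ways, with 9.90% and 16.7% in replicate 1 and 30.2% and 22.4% in replicate 2.

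At genes, a region counted where it overlapped the gene or its promoter. Of 27444 protein-coding genes, 20.1% had an ACD15 region in either library and 11.4% in both, 6.68% had an MBD6 region in either library, 5.7% in replicate 1 and 1.26% in replicate 2, and 5.82% had both proteins. Of the 1832 genes with MBD6, 1596 (87.1%) also had ACD15, and of the 5503 genes with ACD15 these were 29.0%. Both MBD6 libraries met at 79 genes, of which 68 had ACD15 in both libraries and 2 had none.

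Of the genes found in all 4 libraries 18 have a symbol, and the 10 of highest mean percentile carried the regions mostly upstream of the start. Fold enrichments given here are the values of the authors' peak caller in each library and are not compared between proteins. At COBL2, a COBRA-like gene, the summits lay 1068 and 1029 bp upstream in ACD15 and 1071 and 1089 bp upstream in MBD6, with folds of 6.67 and 9.79 and of 24.3 and 31.4. These 4 summits lie within 60 bp of each other, in the repeat printed above. JKD, a zinc finger gene of root patterning, had summits 630 and 667 bp upstream in ACD15 and 771 and 763 bp upstream in MBD6. SWEET6, a sugar transporter gene, had them 759 and 760 bp upstream in ACD15 and 788 and 809 bp upstream in MBD6, and the cytochrome P450 gene CYP702A5 732 and 719 bp upstream in ACD15 and 723 and 726 bp upstream in MBD6. SYP122, a syntaxin gene, and OEP7, a gene of the chloroplast outer envelope, share 1 region. PAP26, an acid phosphatase gene, SWEET11, another sugar transporter gene, and SEN1, a splicing endonuclease gene, complete the upstream group. At SEN1 the proteins lay apart, with summits 179 and 178 bp upstream in ACD15 and 606 and 621 bp upstream in MBD6. In NPQ4, the photoprotection gene of photosystem II, summits lay in an intron 684 and 702 bp downstream of the start in ACD15 and 683 bp downstream in MBD6 replicate 1, but 12 bp downstream in MBD6 replicate 2.

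ACD15 without MBD6, in both ACD15 libraries, was found at 702 genes with a symbol. The highest, ACT2, an actin gene, had summits 183 and 207 bp downstream of its start, in a UTR exon, with folds of 8.30 and 9.57. At COL4, a CONSTANS-like gene, they lay 510 and 504 bp upstream, with folds of 7.57 and 10.2. A region between CPSF73-II, a polyadenylation factor gene, and RIE1, a RING finger gene, lay 144 and 147 bp upstream of RIE1. CKX3, a cytokinin oxidase gene, carried its region in an intron, LNO1, a nucleoporin gene, past its end, and JAZ5, a repressor of jasmonate responses, NRPB6B, an RNA polymerase subunit gene, and ATR, a DNA damage kinase gene, upstream. The region assigned to PHT1;9, a phosphate transporter gene, is the one at AT1G76440 and cannot be told apart from transgene reads. Leaving that one out, the CG density at these summits was 4.00 to 8.50 per 100 bp. Names of the MBD6 lists mark them as without hyperchip, and names of the ACD15 lists do not. At ACT2 and the other genes here, an MBD6 region that was taken out cannot be told apart from one not called.

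MBD6 replicate 1 joined both ACD15 libraries at 334 genes with a symbol and MBD6 replicate 2 at 64. The 5 highest of replicate 1 were TPR8, CYP71B32, ATCES1, CXE18 and PYL1. At PYL1, an abscisic acid receptor gene, the summits lay 897 and 896 bp upstream in ACD15 and 887 bp upstream in MBD6, at a GC content of 34.5% and 34.5% in ACD15 and 35.5% in MBD6. At TPR8, a tetratricopeptide repeat gene, they lay 275 and 267 bp upstream in ACD15 and 318 bp upstream in MBD6. The 5 highest of replicate 2 were PRP2, COL3, TPPI, HCF136 and HVA22D. GC content at the ACD15 summits of these 5 genes was 43% to 54%, and 33% to 46% for the 5 of replicate 1, so the ranges overlapped. It was highest at HCF136, a photosystem II assembly gene, with 54.0% and 54.0% in ACD15 and 54.5% in MBD6. At HVA22D, a gene induced by abscisic acid, it was 43.0% and 43.0% in ACD15 and 48.5% in MBD6. COL3, a CONSTANS-like gene, had the most CG of these genes, 13.0 and 12.5 per 100 bp in ACD15 and 13.0 in MBD6.

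MBD6 without ACD15 was rare at genes. Counting only regions that overlap the gene or its promoter, MBD6 replicate 1 alone was found at 74 genes with a symbol. The highest were NADP-ME3, a malic enzyme gene, with a summit 1737 bp upstream and a fold of 25.7, and NUDT6, a Nudix hydrolase gene. Their regions had score percentiles of 98.8 and 97.0. The highest joined sites of MBD6 replicate 1 only stood at 98.3 and 96.4. Both regions therefore lie in joined sites that another library also holds. Next came WRKY7, a transcription factor gene, SIGC, a plastid sigma factor gene, and GDU6, a glutamine dumper gene. MBD6 replicate 2 alone was found at YY1, a zinc finger gene, CAX9, of the cation exchanger family, and XTH26, a xyloglucan-modifying enzyme gene. Both MBD6 libraries and no ACD15 met at UBQ13, a polyubiquitin gene, but at different places, 4562 bp and 1198 bp downstream of the start, and neither lies in an MBD5/MBD6 region.

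In lists of genes of known function, counts are read beside the share over all protein-coding genes, which was 20.1% for ACD15 and 6.68% for MBD6 in either library. The lists were chosen with earlier results of these data known, so the counts are a description only and were not tested. Of 19 promoter-methylated or imprinted genes found in the annotation, 13 had an ACD15 region in either library, a share above that of all genes, and 3 had an MBD6 region, all 3 with ACD15. FWA, a homeodomain gene silenced through repeats at its start, had ACD15 summits 10 and 26 bp upstream, and ROS1 (DML1 in the annotation), a DNA demethylase gene, 60 and 65 bp upstream, both without MBD6. HDG8, a homeodomain gene, had ACD15 summits 1110 and 1109 bp upstream and an MBD6 replicate 1 summit 1062 bp upstream. In AGL36, an imprinted MADS-box gene, the ACD15 summit of replicate 2 lay 754 bp upstream and the MBD6 replicate 1 summit in a coding exon, 225 bp downstream of the start. SNC1, a disease resistance gene, had them in coding exons, 2536 and 3008 bp downstream in ACD15 and 2976 bp downstream in MBD6 replicate 1. Of 13 MBD family genes 3 had ACD15 and 1, MBD12, also MBD6, shares near those of all genes.

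Of 18 genes of RNA-directed DNA methylation 5 had ACD15 and 1 MBD6, and of 17 genes of maintenance methylation and heterochromatin 4 had ACD15 and none MBD6. At NRPE1 (NRPD1B in the annotation), an RNA polymerase V subunit gene, ACD15 summits lay 351 and 368 bp upstream, and at SUVH5, a histone methyltransferase gene, 425 and 438 bp upstream. DCL3, a Dicer-like gene, had ACD15 317 and 333 bp upstream and MBD6 replicate 1 past its end, 7710 bp from the start, so the proteins did not share a site there. Of 20 floral genes 2 had ACD15 and 1 MBD6. At that gene, TFL1, a repressor of floral fate, summits lay 712 and 691 bp upstream in ACD15 and 919 bp upstream in MBD6 replicate 1. Of 17 abundantly transcribed genes 3 had ACD15 and 1, UBC21 (PEX4 in the annotation), also MBD6. Both genes of the MBD5/MBD6 complex that were matched by symbol lacked MBD6, and MBD5 had ACD15 1002 and 947 bp upstream. MBD6 replicate 2 had no region at a gene of any of the 7 lists, where 1.26% of all genes had one.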

How the data were processed

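Peaks of 4 ChIP-seq libraries were compared. The 2 lists of MBD6-RFP in acd15 acd21 plants were read for overlap and GC content, and the merged MBD5/MBD6 list for overlap. Lists of the controls and ACD21 and any other merged list of the series are not used here. The submitters' processing notes list HOMER, MACS2 2.1.0, deepTools 3.0.2, Picard, Bowtie2, Trim Galore and the TAIR10 genome, without settings. The authors deposited 1 list per library, with a score per peak, a fold enrichment (a ratio), and -log10 of p and q. Their names say that Col0 was subtracted from the ACD15 lists and mark the MBD6 lists as without hyperchip, a term not explained there. Depth is unknown from these lists.

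Entries of the same start and end were joined into 1 region with its highest-scoring summit (6909 and 15093 ACD15 entries, 3492 and 1244 MBD6 entries). Positions were set to 1-based. GC and CG came from 200 bp at the summit of TAIR10.1, in which no peak ended beyond its chromosome, and genes from its RefSeq annotation, which has no transposon features. Libraries were compared by exact permutation of 2 against 2. Replicate numbers are shared between the proteins, but nothing says that they pair the libraries. The functions were tested on simulated lists. Python 3.11.15, NumPy 2.4.6, pandas 2.3.3, SciPy 1.17.1 and Matplotlib 3.10.9 were used. Intervals treat regions as units and cover counting error only. Genes were named by a fixed rule: those in all 4 libraries (10), in both of one protein and none of the other (up to 10 for ACD15, up to 5 for MBD6), in 1 MBD6 library with or without both ACD15 (up to 5), by mean score percentile, and list genes with a region in both ACD15 libraries or in both proteins. List entries that matched no single symbol, among them SLN, ACD15 and ACD21, are in no count, and SEP1 and SEP2, symbols of more than 1 gene, were matched through their synonyms AGL2 and AGL4. The members, lists and limits were chosen with earlier results of these data known. Alternatives were stricter peaks, lists of equal length, other overlaps, windows and zones, and leaving out each library.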

Additional observations from a re-analysis of the deposited data

Results flagged for a closer look

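In 2 measures, regions with the other protein differed from those without in opposite directions for the 2 proteins; width and CG did not part them in this way. For GC content the difference was 6 and 8 points in ACD15 and -5 and -0.75 in MBD6, so the mean ACD15 value was 9.88 points above the MBD6 value. In the share of gene-poor bins it was 0.674 and 8.32 points in ACD15 and -48.8 and -31.1 in MBD6, a gap of 44.4 points between the means. Shared regions are overlapping places in both lists, and the whole lists already differed in both measures. The opposite directions are therefore not separate from that difference between the lists. Neither difference between the proteins was tested, and tag, batch and list length cannot be told apart from protein. Without MBD6 replicate 2 the mean ACD15 value for gene-poor bins was -0.33 points, and with summits within 200 bp ACD15 replicate 1 had -1.49.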

How the results depend on the processing

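Of the recomputed values, 93 were classed as the same, 28 as moved and 5 as turned. Shares, summit distances and with-minus-without values were the same where they moved by less than the spread. The 5 differences between proteins were classed by direction alone, so the 93 include large shifts of these. When 1 library was left out, the GC difference ran from -17.75 to -6.75 and the CG difference from -4.25 to -1.13. The width difference ran from -0.63 to 0.17 when 1 library was left out, turning without MBD6 replicate 1, and turned to 0.32 with equal lists, and that in gene bodies to -1.81 with equal lists. MBD6 CG, with minus without, turned to 0.10 without MBD6 replicate 1, and ACD15 gene-poor share to -0.33 without MBD6 replicate 2; in each case the cause was not tested. Leaving out 1 library gave 8.49% to 35.9% for ACD15 with MBD6 and 42.9% to 83.8% for MBD6 with ACD15.

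With-minus-without values without 1 library ran from 4.75 to 13.75 (GC, ACD15), -6.25 to -0.75 (GC, MBD6), 0.98 to 3.76 (CG, ACD15), -0.67 to 0.10 (CG, MBD6), -0.33 to 12.5 (gene-poor, ACD15), 0.46 to 0.78 (width, ACD15) and 0.21 to 0.31 (width, MBD6). Equal lists gave 55.2% of ACD15 with MBD6, 35.4% of MBD6 with ACD15 and a summit distance of 33.4 bp. Summits within 200 bp gave 25.5%, 59.8%, 32.2 bp, an ACD15 CG difference of 2.21, and MBD6 differences of -26.0 (gene-poor) and 0.16 (width). Stricter peaks gave 41.6 bp and MBD6 differences of -0.32 (CG) and 0.23 (width), and the nearest of all summits 37.2 bp. The 500 bp window gave 5.00 (GC, ACD15), 1.28 (CG, ACD15) and -0.33 (CG, MBD6). With the replicate block the 5 differences between proteins were unchanged at -0.23, -12.25, -2.69, -24.6 and 1.34, and their exact sign-flip p was 0.5 or 1, where 2 pairs cannot go below 0.5. Depth is not in the lists, so what it limits is unknown.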
